A study of Arabidopsis thaliana with 18 samples.

Results

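Jasmonic acid (JA) is a plant stress hormone, and 7 genes for transcription factors known to respond to it were followed here: the NAC genes ANAC019 (AT1G52890), ANAC055 (AT3G15500) and ANAC072 (AT4G27410, also RD26), and the ERF genes ORA47 (AT1G74930), ERF109 (AT4G34410, also RRTF1), ORA59 (AT1G06160) and ERF1 (AT3G23240). They were chosen by locus. All 7 were among the 22209 genes listed, and 6 were among the 17835 tested, since no library reached 1 FPKM for ERF1. The RNA came from whole Arabidopsis thaliana seedlings of the mutant ecap-2 and of the wild type, raised on plates to an age of 6 days before transfer to medium with 50 µM JA. The groups were ecap-2 at 0, 1 and 3 h and wild type at 0, 1 and 3 h, with 3 libraries each and 18 in all. Both 0 h groups are recorded as untreated, although the titles call the ecap-2 ones a JA treatment of 0 h and the wild type ones controls. The labels describe ecap-2 only as a mutant and give neither the lesion nor the number of lines. The series title presents ECAP as an adaptor between JAZ repressors and the co-repressor TPR2 in JA-driven anthocyanin control. Mock treatment at 1 or 3 h was not analysed here. The hormone, the handling at transfer and the hour of sampling therefore cannot be told apart.

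In the absence of JA, JAZ proteins hold MYC-type transcription factors silent through co-repressors. The active hormone, JA-isoleucine, joins the receptor COI1 to a JAZ protein, the JAZ protein is destroyed, and MYC2 and its relatives switch on genes that include further transcription factors. The NAC factors ANAC019, ANAC055 and ANAC072 are known as direct MYC2 targets that also answer to abscisic acid (ABA) and drought and act on salicylic acid metabolism. ORA47 is an AP2/ERF activator of JA synthesis genes, ERF109 links JA to auxin synthesis in roots, and ORA59 and ERF1 join JA and ethylene signals in defence against necrotrophic fungi.

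ANAC019, ERF109 and ORA59 hold a G-box, the core site of MYC factors, within the 300 bases searched around their gene start, and their upstream parts are shown for these motifs. ANAC055 and ORA47, which also rose on JA, hold none of the motifs searched. The searched window ran from 250 bases before to 50 bases after the annotated start, and both strands were read for the G-box CACGTG, for CATGTG and for the GCC box GCCGCC, the core site of ERF factors. Below are the 250 bases before the start, 5′ to 3′ on the gene's own strand, from the RefSeq TAIR10.1 genome. Capitals mark the G-box, the GCC box of ORA59 and, in ANAC019, also a run of 15 bases shared with ANAC055.
ANAC019: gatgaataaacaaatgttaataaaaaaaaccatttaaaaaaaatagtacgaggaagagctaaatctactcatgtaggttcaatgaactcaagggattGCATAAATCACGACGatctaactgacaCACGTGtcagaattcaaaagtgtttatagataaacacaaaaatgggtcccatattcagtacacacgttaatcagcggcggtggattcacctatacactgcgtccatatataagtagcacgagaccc
ERF109: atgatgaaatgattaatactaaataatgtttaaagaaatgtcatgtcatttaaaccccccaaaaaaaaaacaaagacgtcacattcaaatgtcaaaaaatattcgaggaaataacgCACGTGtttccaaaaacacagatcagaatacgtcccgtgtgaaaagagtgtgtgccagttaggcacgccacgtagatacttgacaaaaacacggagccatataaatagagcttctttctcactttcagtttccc
ORA59: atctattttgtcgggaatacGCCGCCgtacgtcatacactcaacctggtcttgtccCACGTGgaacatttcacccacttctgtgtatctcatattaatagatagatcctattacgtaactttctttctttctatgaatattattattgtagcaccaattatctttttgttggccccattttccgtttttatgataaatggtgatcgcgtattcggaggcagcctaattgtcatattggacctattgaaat
The ANAC019 stretch is chr1:19698483-19698732 on the minus strand, the ERF109 stretch chr4:16451626-16451875 on the plus strand and the ORA59 stretch chr1:1882657-1882906 on the plus strand. The G-box begins at base -126 in ANAC019, -134 in ERF109 and -194 in ORA59, counted from the gene start, and the GCC box of ORA59 begins at -230. Of 27443 protein-coding genes in that genome, 7.68% held the G-box in such a window, 12.9% CATGTG and 2.57% the GCC box. No member window held CATGTG, and the windows of ANAC055, ANAC072, ORA47 and ERF1 held none of the 3 motifs. The run GCATAAATCACGACG begins at -153 in ANAC019 and at 21 after the start in ANAC055, and it was the longest same-strand run shared by any pair of members, the next being 11 bases. Between opposite strands the longest was 13 bases, in ANAC019 and ORA59. ANAC019, ANAC055 and ANAC072 have 3 exons in the longest transcript, and ORA47, ERF109, ORA59 and ERF1 have 1.

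The libraries held 20136 to 20520 genes above 0. Values are FPKM, fragments per kilobase of transcript scaled to library size, and they summed to 760383 to 801831 per library in ecap-2 at 0 and 1 h, 853858 to 912834 in ecap-2 at 3 h and 687996 to 765209 in wild type. From the smallest steps of low values, 1 fragment was worth 0.0219 to 0.0470 FPKM in a transcript of 1 kb, so libraries held about 21.3 to 45.6 × 1e6 fragments. The second step should lie at 2 times the first, and it lay at 1.26 in ecap-2 0 h replicate 1 and at 2.57 in wild type 0 h replicate 1, so the fragment numbers of those libraries are less certain. ECAP (AT3G58110, named from general knowledge) averaged 2.65, 2.55 and 2.56 FPKM at 0, 1 and 3 h in ecap-2 and 15.1, 14.6 and 13.0 FPKM in wild type. The 4 leaf and 4 root markers of a whole seedling were all present, and their sums were higher in ecap-2 at each time, but their members differed. Of the leaf markers 1, 1 and 2 were called higher in ecap-2 at 0, 1 and 3 h and none lower, and RBCS1A, with 0.61, 0.60 and 0.87, had the largest difference. Quantile normalization gives each rank the same value in every library, so the highest genes can differ only where their ranks do. RBCS1A, above the other leaf markers in every library at 0 and 1 h, was then at 0.00 at those times. CAB1 was at -0.43 at 3 h (0.42 without that scaling), where it ranked below RBCS1A in ecap-2 and above it in wild type. Those values of RBCS1A and CAB1 follow from rank alone and cannot show whether their levels differed. Under the same scaling LHCA1 was called lower in ecap-2 at 0 and 1 h (-0.26 and -0.25). Of the root markers 3 were called higher at each time, where 21.2%, 17.9% and 28.8% of all tested genes were. PYK10, which makes up nearly all of the root sum, had 0.35, 0.27 and 0.27 and lost its call with quantile normalization at 0 h (0.19, adjusted p = 0.059), 1 h (0.14, adjusted p = 0.16) and 3 h (-0.07, adjusted p = 0.44), and with a common total at 3 h (0.03, adjusted p = 0.66). By contrast, IRT1, an iron transporter gene, was lower at 0 h (-2.06 ± 0.40) and 1 h (-1.17 ± 0.40). Leaf marker sums ran from 36785 to 40751 FPKM in ecap-2 at 3 h, against 26339 to 27263 FPKM in wild type at 3 h, and root marker sums from 4461 to 5085 FPKM in ecap-2, against 3916 to 4111 FPKM in wild type. Sums of 4 seed storage markers overlapped between genotypes at 0 and 3 h, but at 1 h they ran from 11.8 to 17.4 FPKM in ecap-2, against 0.882 to 2.91 FPKM in wild type. In ecap-2 at 1 h 1 of these markers was called higher than in wild type, and 2 were called lower in wild type at 1 h than at 0 h. The part of these marker differences in the member differences between genotypes was not tested. In whole seedlings, fewer cells of a type and less RNA per cell cannot be told apart. The labels do not say that replicates were separate cultures, so the p-values reflect the spread among these libraries, which may be technical.

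ERF109, which activates auxin synthesis genes in JA-treated roots, had a pulse at 1 h in both genotypes, with the largest change at 1 h among the 6 tested members. In ecap-2 it had 0.0611, 0.0645 and 0.0496 FPKM at 0 h, 2.42, 3.02 and 3.88 FPKM at 1 h, and 0.488, 0.556 and 0.630 FPKM at 3 h. In wild type it had 0.0713, 0.0415 and 0.0809 FPKM at 0 h, 3.62, 3.37 and 6.29 FPKM at 1 h, and 0.467, 0.385 and 0.487 FPKM at 3 h. Every 1 h library lay above every 3 h library, and every 3 h library above every 0 h library. The 0 h values rest on only about 2.3 to 3.1 fragments per library in ecap-2 and 1.6 to 3.4 in wild type, too few for a ratio of FPKM. On the log2(FPKM + 1) scale, which understates changes of low genes, the rise at 1 h was 1.94 ± 0.16 (SE) in ecap-2 (limma, adjusted p = 4.1e-08) and 2.31 ± 0.16 in wild type (adjusted p = 4.5e-09). At 3 h ERF109 had dropped again relative to 1 h, with -1.38 ± 0.16 in ecap-2 (adjusted p = 4.5e-06) and -1.87 ± 0.16 in wild type (adjusted p = 2.4e-07). It was still above 0 h, with 0.56 ± 0.16 in ecap-2 (adjusted p = 0.0085) and 0.44 ± 0.16 in wild type (adjusted p = 0.033). ERF109 reached 1 FPKM in every 1 h library and in no other, so it entered the test through the time at which it was high. The calls of its rise to 1 h and fall by 3 h therefore describe it and support nothing further. The wild type call at 3 h was lost when any 1 of the 6 wild type libraries at 0 and 3 h was left out, with adjusted p between 0.053 and 0.084, and with quantile normalization (adjusted p = 0.051). With a pseudocount of 5 the 3 h changes were 0.14 in ecap-2 (adjusted p = 0.19) and 0.10 in wild type (adjusted p = 0.33).

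**Figure D1:**
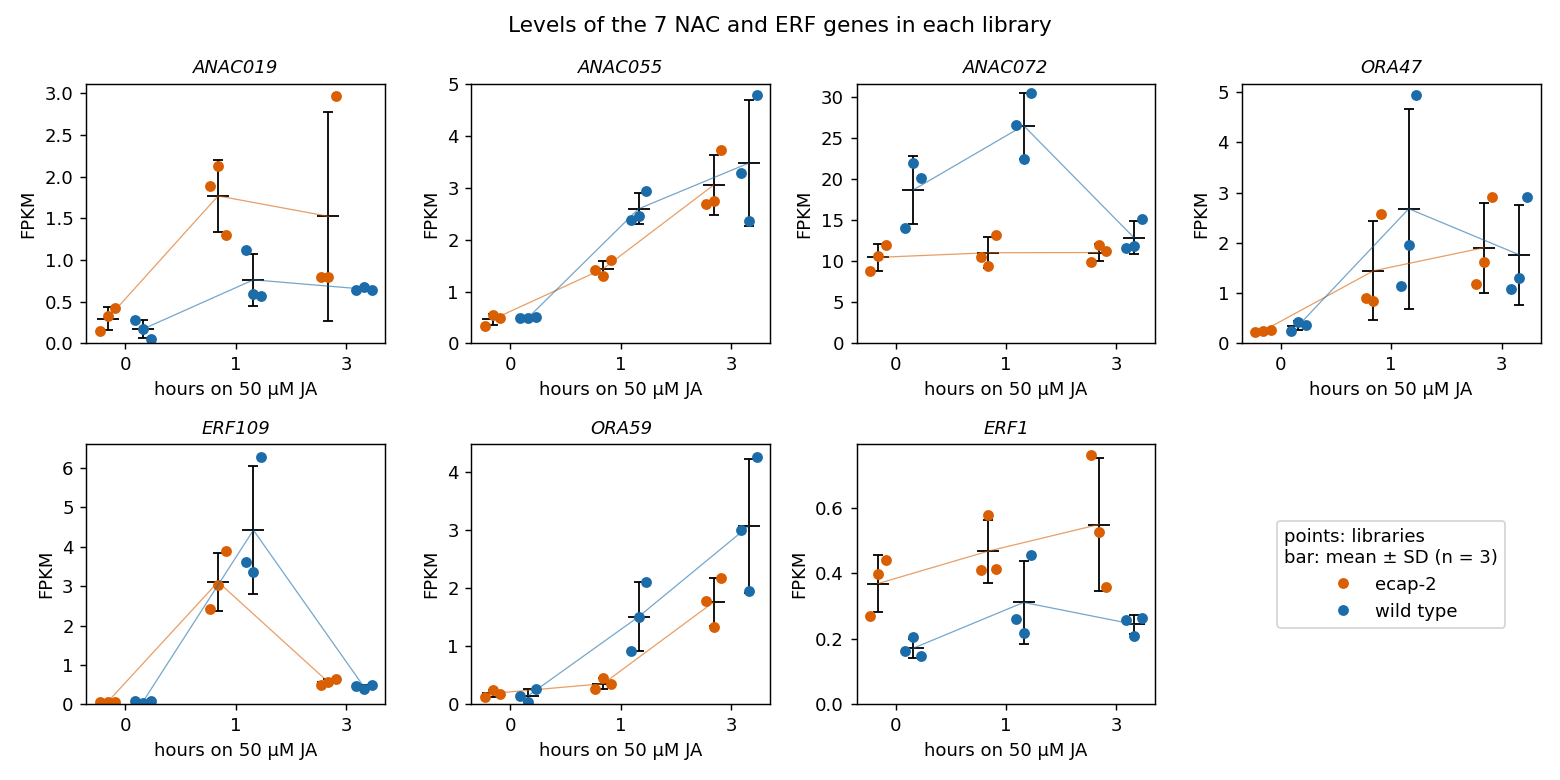
FPKM of each of the 7 genes in every library against hours on 50 µM JA, with ecap-2 in orange left of wild type in blue, points for libraries, black bars for the mean ± SD (n = 3) and thin lines joining the means. ERF109 peaks at 1 h in both genotypes, ORA59 and ANAC055 are highest at 3 h, and ANAC072 has ecap-2 means between 10.5 and 11.1 FPKM and a wild type peak of 26.6 FPKM at 1 h.

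ORA59, an activator of the defensin and chitinase defence branch, rose in both genotypes, but in ecap-2 the rise was called at 3 h and not at 1 h. The ecap-2 libraries of ORA59 held 0.127, 0.252 and 0.182 FPKM at 0 h, 0.263, 0.447 and 0.352 FPKM at 1 h, and 1.77, 1.33 and 2.17 FPKM at 3 h. The wild type libraries held 0.145, 0.0348 and 0.259 FPKM at 0 h, 0.915, 1.50 and 2.11 FPKM at 1 h, and 3.00, 1.95 and 4.27 FPKM at 3 h. At 1 h all 3 ecap-2 libraries lay below all 3 wild type libraries, while the genotypes overlapped at 0 and 3 h. The ecap-2 libraries at 1 h all lay just above those at 0 h. The 1 h change was 0.19 ± 0.19 in ecap-2 (limma, adjusted p = 0.49) and 1.11 ± 0.19 in wild type (adjusted p = 0.00022). The 3 h change was 1.21 ± 0.19 in ecap-2 (adjusted p = 6.7e-05) and 1.79 ± 0.19 in wild type (adjusted p = 8.7e-07). From 1 h to 3 h ORA59 gained 1.02 ± 0.19 in ecap-2 (adjusted p = 0.00051) and 0.69 ± 0.19 in wild type (adjusted p = 0.012). Leaving out replicate 1 at 1 h (adjusted p = 0.068) or replicate 3 at 3 h (adjusted p = 0.079) ended the wild type call, as did a pseudocount of 0.1 (adjusted p = 0.063) and a fit of only the groups compared (adjusted p = 0.074). At 0 h, ORA59 rested on about 4.2 to 9.0 fragments per library in ecap-2 and 1.0 to 7.6 in wild type.

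ORA47, an activator of its own hormone's synthesis genes, rose in both genotypes with a wide spread between replicates. ORA47 levels in ecap-2 were 0.223, 0.246 and 0.278 FPKM at 0 h, 0.898, 0.853 and 2.58 FPKM at 1 h, and 1.18, 1.62 and 2.91 FPKM at 3 h. Wild type levels were 0.256, 0.437 and 0.373 FPKM at 0 h, 1.14, 1.96 and 4.93 FPKM at 1 h, and 1.09, 1.3 and 2.91 FPKM at 3 h. Every JA library lay above every 0 h library, and replicate 3 was the highest of its group in all 4 JA groups. ANAC055 and ERF109 shared that order, as did 530 of the 17835 tested genes (2.97%). The 1 h change was 0.90 ± 0.34 in ecap-2 (limma, adjusted p = 0.057) and 1.31 ± 0.34 in wild type (adjusted p = 0.0078), and the 3 h change was 1.17 ± 0.34 in ecap-2 (adjusted p = 0.012) and 0.97 ± 0.34 in wild type (adjusted p = 0.034). The ecap-2 change at 1 h was called with replicate number as a block (adjusted p = 0.0038), with a pseudocount of 0.1 (adjusted p = 0.0058), with only the groups compared (adjusted p = 0.027), with all replicate 3 libraries left out (adjusted p = 0.027) and when wild type replicate 1 at 1 h (adjusted p = 0.034), replicate 3 at 1 h (adjusted p = 0.02) or replicate 3 at 3 h (adjusted p = 0.044) was left out. The ecap-2 call at 3 h was lost without ecap-2 3 h replicate 3 (adjusted p = 0.055). The wild type call at 3 h was lost without any 1 of the 3 wild type 0 h libraries (adjusted p between 0.063 and 0.087) or without wild type 3 h replicate 3 (adjusted p = 0.15). Neither 3 h change passed with a pseudocount of 5, at adjusted p = 0.053 in ecap-2 and 0.1 in wild type.

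ANAC055, a NAC factor that acts with ANAC019 downstream of MYC2, rose at both times in both genotypes. ANAC055 measured, in ecap-2, 0.342, 0.556 and 0.497 FPKM at 0 h, 1.41, 1.31 and 1.60 FPKM at 1 h, and 2.69, 2.75 and 3.73 FPKM at 3 h. The wild type seedlings gave 0.488, 0.489 and 0.513 FPKM at 0 h, 2.38, 2.46 and 2.94 FPKM at 1 h, and 3.29, 2.36 and 4.79 FPKM at 3 h. At 1 h the ecap-2 libraries were all below the wild type ones, and at 0 and 3 h the genotypes overlapped. The 1 h change was 0.74 ± 0.15 in ecap-2 (limma, adjusted p = 0.0012) and 1.26 ± 0.15 in wild type (adjusted p = 5.2e-06). At 3 h the changes were 1.46 ± 0.15 in ecap-2 (adjusted p = 6.7e-07) and 1.55 ± 0.15 in wild type (adjusted p = 3.5e-07). The gain between 1 h and 3 h was called in ecap-2, at 0.72 ± 0.15 (adjusted p = 0.0013). In wild type it was 0.28 ± 0.15 (adjusted p = 0.18), and without wild type 3 h replicate 2 it was called, at 0.47 (adjusted p = 0.022).

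ANAC019, which acts redundantly with ANAC055, was the one tested member called higher in ecap-2 on JA. In ecap-2 it had 0.145, 0.329 and 0.424 FPKM at 0 h, 1.88, 2.13 and 1.29 FPKM at 1 h, and 0.800, 0.802 and 2.97 FPKM at 3 h. The wild type values were 0.284, 0.177 and 0.0577 FPKM at 0 h, 1.12, 0.593 and 0.571 FPKM at 1 h, and 0.640, 0.678 and 0.637 FPKM at 3 h. All ecap-2 libraries lay above all wild type libraries at 1 h and at 3 h. The ecap-2 change was 1.09 ± 0.23 at 1 h (limma, adjusted p = 0.0015) and 0.86 ± 0.23 at 3 h (adjusted p = 0.0064), whereas the wild type values of 0.58 ± 0.23 (adjusted p = 0.066) and 0.50 ± 0.23 (adjusted p = 0.099) did not pass. The JA libraries all lay above the 0 h libraries in wild type as well, and the 0 h values rest on about 6.2 to 19.1 fragments in ecap-2 and 2.2 to 13.1 in wild type. Ecap-2 3 h replicate 3 stood far above its group and was the library of least depth, about 21.3 × 1e6 fragments. Without it the ecap-2 change at 3 h was 0.48 (adjusted p = 0.024), the change from 1 h to 3 h in ecap-2 was -0.61 (adjusted p = 0.0071, against -0.23 and 0.46 with it), and the wild type change passed at both times, with adjusted p = 0.0048 for 1 h and 0.01 for 3 h. The wild type change also passed with a pseudocount of 0.1 (adjusted p = 0.0079 and 0.011 for those times) and with only the groups compared (adjusted p = 0.03 and 0.014), and at 1 h with all replicate 3 libraries left out (adjusted p = 0.023). With only the groups compared the ecap-2 change at 3 h lost its call (adjusted p = 0.053).

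ANAC072 (RD26), a drought and ABA response factor, had the highest level of the 7 and showed no called change in ecap-2. In ecap-2 it had 8.82, 10.6 and 12.1 FPKM at 0 h, 10.6, 9.46 and 13.2 FPKM at 1 h, and 9.94, 12.1 and 11.3 FPKM at 3 h. In wild type it had 14.0, 22.0 and 20.2 FPKM at 0 h, 26.7, 22.5 and 30.5 FPKM at 1 h, and 11.6, 11.9 and 15.2 FPKM at 3 h. The 3 times overlapped in ecap-2, whereas in wild type all 1 h libraries lay above all others and the 0 h and 3 h libraries overlapped. The ecap-2 changes were 0.07 ± 0.16 at 1 h (limma, adjusted p = 0.80) and 0.08 ± 0.16 at 3 h (adjusted p = 0.73). In wild type ANAC072 rose at 1 h, by 0.50 ± 0.16 (adjusted p = 0.028), and was lower at 3 h than at 0 h, with -0.49 ± 0.16 (adjusted p = 0.024). The fall from 1 h to 3 h in wild type, -0.99 ± 0.16 (adjusted p = 0.00028), was called under all 28 alternatives. The wild type rise at 1 h was lost without wild type 0 h replicate 1, at 0.31 (adjusted p = 0.15), or when replicate 1 (adjusted p = 0.066) or 3 (adjusted p = 0.12) of wild type at 1 h was left out, with only the groups compared (adjusted p = 0.075) and with all replicate 3 libraries left out (adjusted p = 0.098). The wild type fall at 3 h against 0 h was lost when replicate 2 (adjusted p = 0.12) or 3 (adjusted p = 0.083) of the 0 h group, or replicate 1 (adjusted p = 0.09) or 2 (adjusted p = 0.081) of the 3 h group, was left out, and with only the groups compared (adjusted p = 0.056). Against 0 h, a rise of ANAC072 on JA was called in wild type at 1 h, in 23 of 28 alternatives, and in no other comparison.

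ERF1, the ethylene and JA response factor, stayed below 1 FPKM in every library. ERF1 values in ecap-2 were 0.269, 0.396 and 0.439 FPKM at 0 h, 0.410, 0.578 and 0.413 FPKM at 1 h, and 0.762, 0.525 and 0.358 FPKM at 3 h. Those in wild type were 0.162, 0.204 and 0.146 FPKM at 0 h, 0.259, 0.218 and 0.455 FPKM at 1 h, and 0.258, 0.209 and 0.263 FPKM at 3 h. At 0 h and 3 h the ecap-2 libraries all lay above the wild type ones, and at 1 h they overlapped. In wild type every 1 h and 3 h library lay above every 0 h library, while in ecap-2 the JA and 0 h libraries overlapped. The values rest on about 6.0 to 19.3 fragments per library in ecap-2 and 3.8 to 11.1 in wild type. With no filter on low values, no change with JA passed the test: the ecap-2 changes were 0.10 ± 0.09 at 1 h (limma, adjusted p = 0.47) and 0.17 ± 0.09 at 3 h (adjusted p = 0.14), and the wild type changes were 0.16 ± 0.09 (adjusted p = 0.21) and 0.09 ± 0.09 (adjusted p = 0.50). In that fit of 22209 genes, 27.3% were called in either direction at 1 h and 36.8% at 3 h in ecap-2, and 28.0% and 34.2% in wild type. A change of ERF1 with JA did not pass at this depth in either genotype.

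Over the 6 tested members, JA at 1 h was called as a rise for 3 in ecap-2, where 16.6% of all tested genes rose, and for 5 in wild type, where 17.3% rose. None fell at 1 h, where 17.0% of tested genes fell in ecap-2 and 16.7% in wild type. At 3 h a rise was called for 5 members in ecap-2 (23.1% of all tested genes), with none called lower (22.2%), and for 4 in wild type (21.4%), where 1 member, ANAC072, fell (20.1%). From 1 h to 3 h, ANAC055 and ORA59 rose in ecap-2 (20.9%) and ORA59 rose in wild type (14.5%). The change of ORA47 was 0.28 ± 0.34 in ecap-2 (adjusted p = 0.55) and -0.34 ± 0.34 in wild type (adjusted p = 0.51), and that of ERF1, with no filter, 0.07 ± 0.09 (adjusted p = 0.60) and -0.07 ± 0.09 (adjusted p = 0.64). Over the same interval ERF109 fell in ecap-2 (19.7%), and ERF109 and ANAC072 fell in wild type (14.5%). The median change of the 6 was 0.82 in ecap-2 and 1.18 in wild type at 1 h, and 1.02 in ecap-2 and 0.74 in wild type at 3 h, while all tested genes had medians of -0.01 in ecap-2 at both times, 0.01 in wild type at 1 h and 0.00 at 3 h. Except for ANAC072, the tested members had no 0 h library at 1 FPKM and entered the test only through their JA libraries, so they had to differ, and these counts describe them and support nothing further. With no filter, all 7 entered and the same members were called in these comparisons. After rescaling every library to the same total FPKM, the median change of all genes in ecap-2 at 3 h was -0.17, against -0.01 before. Rises were then 25.9% of the called genes, against 51.0% before. In wild type at 3 h the share was 39.2%, against 51.6%, and from 1 h to 3 h in ecap-2 it was 22.9%, against 51.4%. No member call with JA differed under that rescaling, while with quantile normalization the wild type rise of ERF109 at 3 h lost its call (0.41, adjusted p = 0.051).

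**Figure D2:**
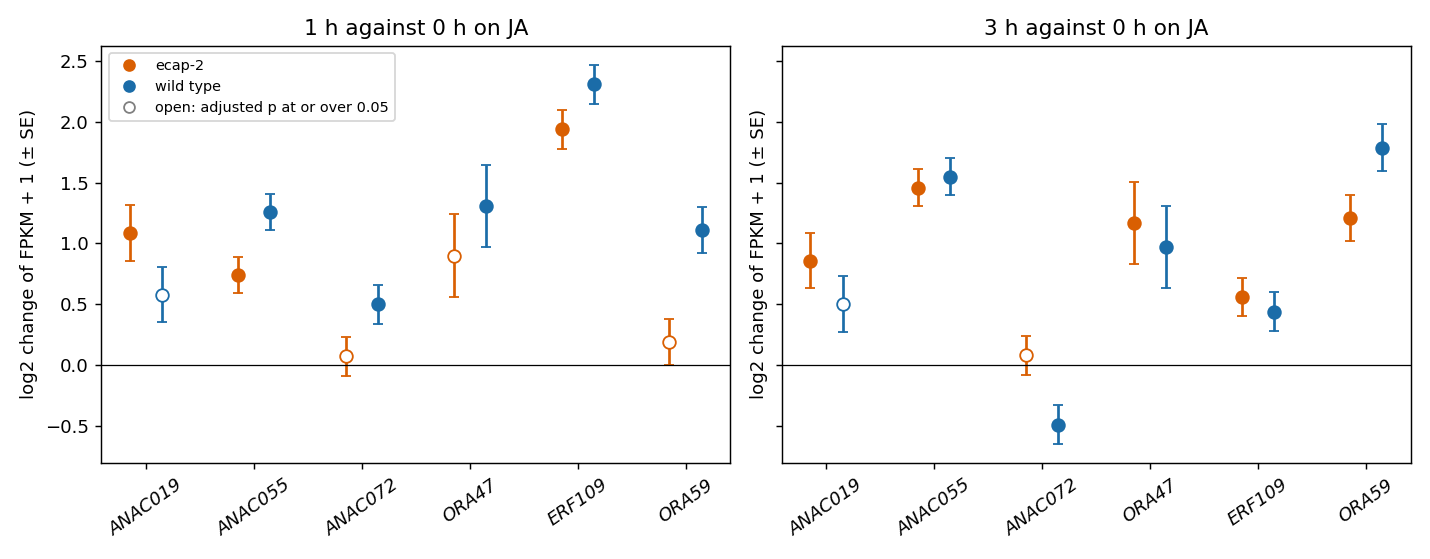
Change with JA of the 6 tested genes at 1 h (left) and 3 h (right) against 0 h, as log2 of FPKM + 1 ± SE, with ecap-2 in orange left of wild type in blue and filled points where the adjusted p was under 0.05. ERF109 has the largest change of the 6 at 1 h, 1.94 in ecap-2 and 2.31 in wild type, and ANAC072 is near 0 in ecap-2 at both times.

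Before JA, 1 member differed between the genotypes. ANAC072 was lower in ecap-2 at 0 h, with a difference of -0.77 ± 0.16 (limma, adjusted p = 0.0015), with 10.5 ± 1.62 FPKM in ecap-2 and 18.7 ± 4.15 FPKM in wild type (SD, n = 3 each) and no overlap between libraries. Of all tested genes 23.0% were called lower and 21.2% higher in ecap-2 at 0 h. The other 5 tested members differed by -0.12 to 0.15 on the log2 scale, with adjusted p between 0.64 and 0.97. ERF1, in the fit with no filter, differed by 0.22 ± 0.09 (adjusted p = 0.060), where 36.5% of genes were called in either direction.

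At 1 h on JA, 3 members were lower in ecap-2 and 1 was higher, where 21.9% of tested genes were called lower and 17.9% higher. ANAC072 differed by -1.19 ± 0.16 (limma, adjusted p = 3.9e-05), at 11.1 ± 1.91 FPKM in ecap-2 and 26.6 ± 4.03 FPKM in wild type. ORA59 differed by -0.86 ± 0.19 (adjusted p = 0.0019) and ANAC055 by -0.56 ± 0.15 (adjusted p = 0.0083), and in each of these 3 genes the libraries of the genotypes did not overlap. These 3 calls held in all alternatives each gene entered, including rescaling to a common total. ANAC019 was higher in ecap-2 by 0.65 ± 0.23 (adjusted p = 0.034). It reached 1 FPKM in 3 ecap-2 libraries at 1 h, in 1 at 3 h and in 1 wild type library at 1 h, so it entered the test through the group in which it was called higher, and that call supports nothing further. With no filter the adjusted p was 0.041. Among 1 h libraries, that call was lost when replicate 1 (adjusted p = 0.09) or 2 (adjusted p = 0.12) of ecap-2, or replicate 2 (adjusted p = 0.099) or 3 (adjusted p = 0.1) of wild type, was left out, and with a pseudocount of 0.1 (adjusted p = 0.055). ERF109 differed by -0.38 ± 0.16 (adjusted p = 0.068) and ORA47 by -0.53 ± 0.34 (adjusted p = 0.24), with libraries of the genotypes overlapping in both. ERF1, with no filter, differed by 0.16 ± 0.09 (adjusted p = 0.17), where 32.6% of genes were called. The ERF109 difference was called at -0.45 with a common total (adjusted p = 0.029), at -0.38 with the replicate block (adjusted p = 0.043), and when ecap-2 replicate 3 (adjusted p = 0.027) or wild type replicate 1 (adjusted p = 0.044) or 2 (adjusted p = 0.024) at 1 h was left out.

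At 3 h on JA, 1 of the 6 tested members differed. ORA59 was lower in ecap-2, with a difference of -0.53 ± 0.19 (limma, adjusted p = 0.025), where 28.6% of all tested genes were called lower and 28.8% higher. It had 1.76 ± 0.419 FPKM in ecap-2 and 3.07 ± 1.16 FPKM in wild type, and the libraries overlapped. Among 3 h libraries, the call was lost without ecap-2 replicate 1 (adjusted p = 0.051) or 2 (adjusted p = 0.11) and without replicate 1 (adjusted p = 0.058) or 3 (-0.33, adjusted p = 0.16) of wild type. It was also lost with a pseudocount of 0.1 (adjusted p = 0.11), with quantile normalization (-0.36, adjusted p = 0.12), with only the groups compared (adjusted p = 0.056) and with all replicate 3 libraries left out (adjusted p = 0.081). ANAC055 differed by -0.12 ± 0.15 (adjusted p = 0.53) and ORA47 by 0.09 ± 0.34 (adjusted p = 0.85). ERF109 differed by 0.11 ± 0.16 (adjusted p = 0.58), although its libraries did not overlap. ANAC072 did not pass at 3 h, at -0.19 ± 0.16 (adjusted p = 0.33), but it passed with a common total, at -0.41 (adjusted p = 0.04). ANAC019 differed by 0.50 ± 0.23 (adjusted p = 0.073), which rested on ecap-2 3 h replicate 3, at 2.97 FPKM against 0.800 and 0.802 FPKM in the other ecap-2 libraries. Without that library the difference was 0.12 (adjusted p = 0.53), and with all replicate 3 libraries left out 0.12 ± 0.16 (adjusted p = 0.57). It passed without ecap-2 3 h replicate 1 (adjusted p = 0.027), without ecap-2 3 h replicate 2 (adjusted p = 0.027) and with quantile normalization (adjusted p = 0.03). ERF1, in the fit with no filter, was higher in ecap-2 at 3 h by 0.31 ± 0.09 (adjusted p = 0.0089), with no overlap, where 47.4% of the 22209 genes were called in either direction. ERF1 entered only that fit, so its call was not checked under the other settings or with libraries left out. It rests on about 6.0 to 19.3 fragments per library in ecap-2 and 5.9 to 7.2 in wild type. After rescaling to a common total the median genotype difference of all genes was -0.11 at 0 h, -0.10 at 1 h and -0.20 at 3 h. Before it the medians were -0.0009, -0.017 and 0.006. Genes called higher in ecap-2 were then 28.2%, 28.4% and 24.1% of the called genes, against 47.9%, 45.0% and 50.2% before.

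**Figure D3:**
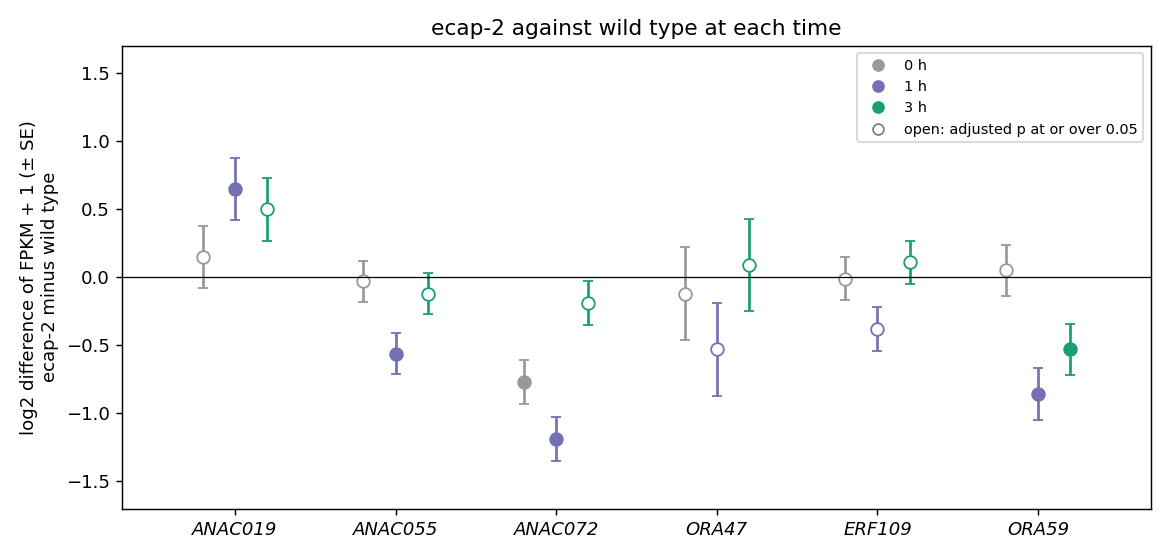
Difference between ecap-2 and wild type for the 6 tested genes at 0, 1 and 3 h, as log2 of FPKM + 1 ± SE, positive where ecap-2 is higher and filled where the adjusted p was under 0.05. ANAC072 lies at -0.77, -1.19 and -0.19, and ANAC019 at 0.15, 0.65 and 0.50, of which the 3 h value is 0.12 without ecap-2 3 h replicate 3.

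The JA response itself was then compared between the genotypes, as the change in ecap-2 less the change in wild type. None of the 6 tested members passed in limma at 1 h (0.314% of all tested genes called) or at 3 h (2.42%), and 2 had an unadjusted p under 0.05 at each time. At 1 h these were ORA59, at -0.92 ± 0.27 (adjusted p = 0.24), and ANAC055, at -0.52 ± 0.22 (adjusted p = 0.55). At 3 h they were ORA59, at -0.59 ± 0.27 (adjusted p = 0.25), and ANAC072, at 0.57 ± 0.23 (adjusted p = 0.19). The rise of ORA59 at 1 h, called in wild type and not in ecap-2, is therefore not shown to differ between them. ANAC019 differed by 0.51 and 0.36 at 1 and 3 h, ORA47 by -0.41 and 0.20, and ERF109 by -0.37 and 0.12. ANAC072 differed by -0.43 at 1 h and ANAC055 by -0.08 at 3 h. ERF1, with no filter, differed by -0.06 ± 0.12 (adjusted p = 0.98) and 0.09 ± 0.12 (adjusted p = 0.79). No member passed this comparison under any alternative.

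The 6 groups can be placed in order of their mean level for each gene. ERF109 ran from ecap-2 and wild type at 0 h, which overlapped, through wild type at 3 h and ecap-2 at 3 h to ecap-2 and wild type at 1 h, which overlapped. ORA59 ran from the overlapping 0 h groups through ecap-2 at 1 h, which overlapped neither neighbour, to wild type at 1 h, ecap-2 at 3 h and wild type at 3 h, each overlapping the next. ANAC055 ran from the overlapping 0 h groups through ecap-2 at 1 h, apart from both neighbours, to wild type at 1 h, ecap-2 at 3 h and wild type at 3 h. In ANAC072 the 3 ecap-2 groups and wild type at 3 h were the lowest and overlapped in turn, and wild type at 1 h stood apart at the top. In ORA47 the 4 JA groups each overlapped the next. In ANAC019 the order was wild type and ecap-2 at 0 h, wild type at 3 h and 1 h, then ecap-2 at 3 h and 1 h, with a gap only above ecap-2 at 0 h. In ERF1 wild type at 0 h was lowest and apart, and all other neighbours overlapped.

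Among 14286 other tested genes with a group mean of at least 5 FPKM, those most like each member over the 18 libraries were named by Pearson's r of log2(FPKM + 1), which all share library, depth and group. For ERF109 they were AT5G53050 (r = 0.971), AXS2 (r = 0.970) and the WRKY factor gene WRKY18 (r = 0.963). For ANAC055 they were AT3G56060 (r = 0.955), AT4G16857 (r = 0.950) and DIN11 (r = 0.948), and for ORA59 AT5G43440 (r = 0.933), AT1G75800 (r = 0.928) and EMB2729 (r = 0.927). For ANAC072 they were AT2G44230 (r = 0.922), the transporter gene ABCG16 (r = 0.895) and AT4G01090 (r = 0.895). For ANAC019 the highest was AT5G34930 (r = 0.869) and for ORA47 AT2G35880 (r = 0.867), with ERF2 next (r = 0.856). AT3G56060 averaged 5.95, 9.21 and 15.0 FPKM at 0, 1 and 3 h in ecap-2 and 6.87, 12.4 and 15.3 FPKM in wild type, the order of groups seen in ANAC055.

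Other genes around these factors were read from lists of relatives, regulators and known targets. At 1 h, 16.6% of all tested genes rose and 17.0% fell in ecap-2, and 17.3% rose and 16.7% fell in wild type. Of the upstream regulators, MYC2, the master activator of the JA response, averaged 17.2, 84.6 and 71.9 FPKM at 0, 1 and 3 h in ecap-2 and 12.6, 72.3 and 47.1 FPKM in wild type. It rose at 1 h by 2.23 ± 0.13 in ecap-2 and 2.44 ± 0.13 in wild type on the log2 scale. Of the 6 regulators tested (COI1, MYC2, MYC3, MYC4, EIN3, EIL1), 4 rose and 1 fell in ecap-2 at 1 h, and 3 rose and 1 fell in wild type. MYC3, with 0.20 ± 0.07 in each genotype, was among these risers and lost its call with a common total (adjusted p = 0.056 in ecap-2 and 0.09 in wild type) and with quantile normalization (adjusted p = 0.073 in ecap-2 and 0.067 in wild type). The risers were then 3 in ecap-2 and 2 in wild type. Between genotypes, 2 regulators were called higher and 1 lower in ecap-2 at 0 h (21.2% and 23.0% of all tested genes). At 1 h 1 was higher and 1 lower (17.9% and 21.9%), and at 3 h 2 were higher and 2 lower (28.8% and 28.6%). MYC4, a MYC2 relative, was lower in ecap-2 at each time, with differences of -0.48, -0.43 and -0.53 at 0, 1 and 3 h. MYC2 was higher in ecap-2 at 0 h by 0.43 (limma, adjusted p = 0.012), a call lost with a common total (adjusted p = 0.059). At 3 h it was higher in ecap-2 by 0.60, the highest value of the list, and stayed called with a common total and with quantile normalization.

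Of 13 tested ERF relatives, 7 rose and 2 fell in ecap-2 at 1 h (16.6% and 17.0% of all tested genes), and 8 rose and 2 fell in wild type (17.3% and 16.7%). RAP2.6, an ERF of wounding and JA responses, averaged 21.3, 260 and 203 FPKM at 0, 1 and 3 h in ecap-2 and 11.8, 182 and 111 FPKM in wild type. ERF114 also had its highest level at 1 h, with means of 0.0145, 35.3 and 2.99 FPKM in ecap-2 and 0.0327, 13.4 and 1.69 FPKM in wild type. Its 1 h level was higher in ecap-2 by 1.33 ± 0.20 on the log2 scale. ERF019 also peaked at 1 h, at 9.21 FPKM in ecap-2 and 6.95 FPKM in wild type, and ERF2 rose at 1 h by 1.84 ± 0.22 in ecap-2 and 2.84 ± 0.22 in wild type. Of 6 tested NAC relatives, 3 rose and 1 fell at 1 h in each genotype. ANAC032 rose by 0.49 ± 0.12 in ecap-2 and 1.19 ± 0.12 in wild type, and ATAF2 by 0.96 ± 0.09 in ecap-2 and 0.98 ± 0.09 in wild type. No tested ERF or NAC relative passed the limma comparison of JA responses between the genotypes at 1 h or 3 h. With quantile normalization ERF114 passed at 1 h (adjusted p = 0.048, against 0.052 without it). ERF2 averaged 2.47 FPKM in ecap-2 and 1.01 FPKM in wild type at 0 h. At 1 h it averaged 11.6 FPKM in ecap-2 and 13.9 FPKM in wild type.

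**Figure D4:**
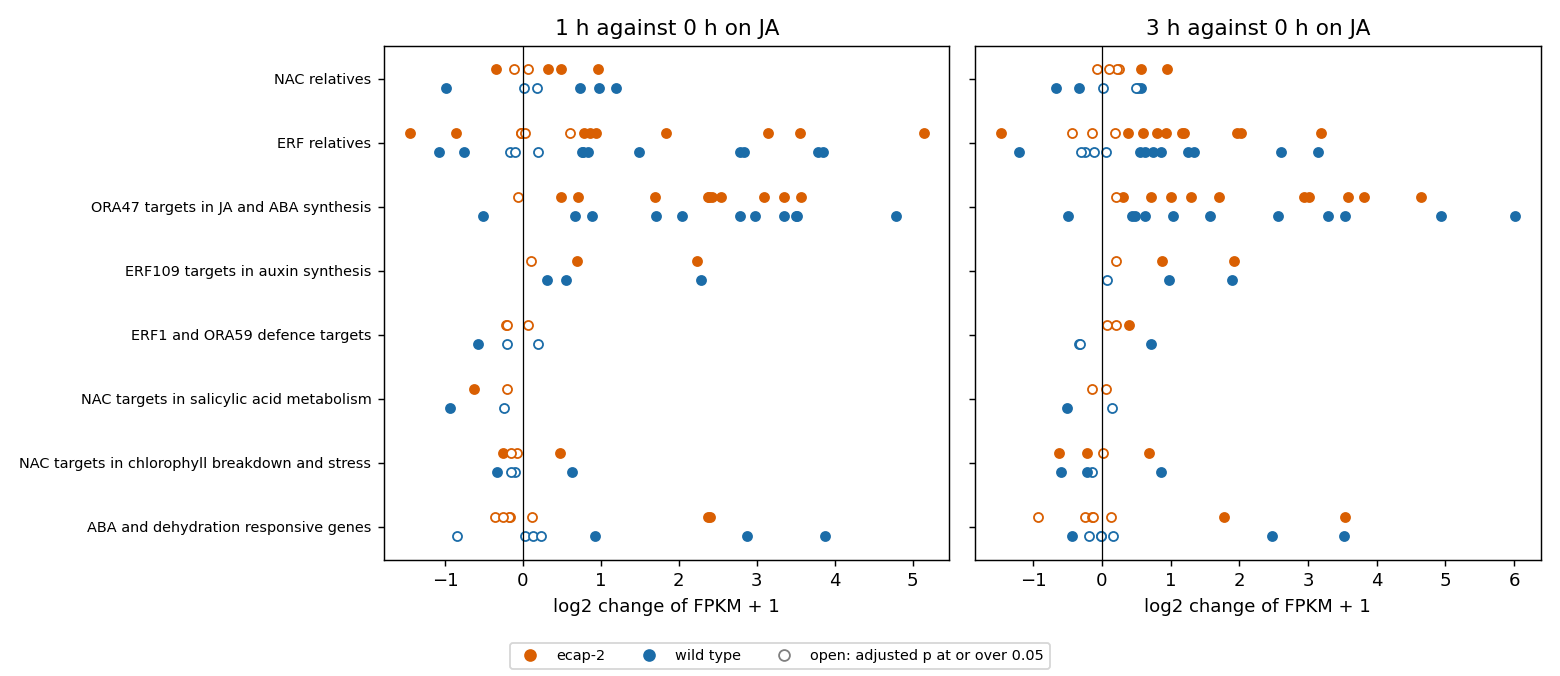
Change with JA of tested genes in 8 lists of relatives and known targets at 1 h (left) and 3 h (right) against 0 h, as log2 of FPKM + 1, with ecap-2 in orange above wild type in blue and each point a gene, filled where its adjusted p was under 0.05. Of the 11 genes listed as ORA47 targets 10 lie to the right as filled points in each genotype, and the 5 salicylic acid and defence targets lie between -0.93 and 0.71.

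Targets of ORA47 and ERF109 were read next. Of 11 genes of JA and ABA synthesis listed for ORA47, 10 rose at 1 h in ecap-2 (16.6% of all tested genes) and 10 in wild type (17.3%). In wild type 1 fell (16.7%), NCED3 of ABA synthesis. NCED3 passed the filter through its wild type 0 h libraries, so that call supports nothing further. The list was chosen with earlier results of these data known, and its counts only describe it. Medians of the list at 1 h were 2.39 in ecap-2 and 2.79 in wild type, beside -0.01 and 0.01 over all tested genes. LOX2, a chloroplast lipoxygenase that starts JA synthesis, averaged 24.5, 262 and 622 FPKM at 0, 1 and 3 h in ecap-2 and 5.60, 181 and 428 FPKM in wild type, and OPR3, a peroxisomal reductase gene of the pathway, averaged 26.7, 329 and 222 FPKM in ecap-2 and 16.3, 198 and 102 FPKM in wild type. All 3 genes listed for ERF109 were tested. ASA1, for the first enzyme of tryptophan synthesis, rose at 1 h by 2.23 ± 0.07 in ecap-2 and 2.28 ± 0.07 in wild type, and ASB1, for its partner subunit, by 0.69 ± 0.14 in ecap-2 and 0.55 ± 0.14 in wild type. YUC2, of auxin synthesis, changed by 0.10 ± 0.10 in ecap-2 and 0.31 ± 0.10 in wild type, of which the wild type change was called (adjusted p = 0.029). That call was lost when wild type replicate 2 at 0 h (adjusted p = 0.13) or replicate 2 (adjusted p = 0.092) or 3 (adjusted p = 0.084) at 1 h was left out.

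Of 3 tested genes listed for ORA59 and ERF1, none was called at 1 h in ecap-2, where 16.6% of all tested genes rose and 17.0% fell. In wild type 1, PR4, fell (16.7%) and none rose (17.3%). At 3 h 1 rose in ecap-2 (23.1% of all tested genes), and 1 rose (21.4%) and 1 fell (20.1%) in wild type. The riser was ACT, for an acyltransferase of defence amide synthesis, with 0.40 ± 0.12 in ecap-2 and 0.71 ± 0.12 in wild type. Its ecap-2 call was lost when ecap-2 replicate 1 (adjusted p = 0.05) or 3 (adjusted p = 0.056) at 3 h, or all replicate 3 libraries (adjusted p = 0.14), were left out. From 1 h to 3 h PR4 and ACT rose in ecap-2, with 0.44 ± 0.09 and 0.33 ± 0.12, and ACT rose in wild type, with 0.53 ± 0.12. The ecap-2 gain of ACT was lost when replicate 2 or 3 at 1 h or replicate 1 or 3 at 3 h was left out (adjusted p between 0.11 and 0.14), with a pseudocount of 0.1 (adjusted p = 0.055), with a common total (adjusted p = 0.11), with only the groups compared (adjusted p = 0.075) and with the replicate block (adjusted p = 0.053). Without all replicate 3 libraries neither gain of ACT passed, with adjusted p = 0.26 in ecap-2 and 0.06 in wild type. ACT reached 1 FPKM in every wild type library at 3 h, in ecap-2 3 h replicate 3 and in no 0 h or 1 h library. It thus entered the test only through the 3 h groups in which it was called higher. Its calls at 3 h, against 0 h and against 1 h, therefore support nothing further. PR4, a pathogenesis-related protein gene, averaged 35.2, 30.0 and 41.0 FPKM at 0, 1 and 3 h in ecap-2 and 55.1, 36.7 and 43.3 FPKM in wild type. The defensin genes PDF1.2 and PDF1.2c of the list were below the filter. Between genotypes, 2 of the 3 tested genes were called lower in ecap-2 at 0, 1 and 3 h (23.0%, 21.9% and 28.6% of all tested genes) and none higher. PR3 had the largest differences, -1.17, -1.19 and -0.78. At 3 h the other was ACT, at -0.34, a call that likewise supports nothing further and was lost with quantile normalization (-0.19, adjusted p = 0.2). UGT74F2, for a salicylic acid glucosyltransferase, fell at 1 h, with changes of -0.63 ± 0.15 in ecap-2 and -0.93 ± 0.15 in wild type. It was lower in ecap-2 at each time, with differences of -1.13, -0.83 and -0.77 at 0, 1 and 3 h, and so was ICS1 of salicylic acid synthesis, with -0.50, -0.46 and -0.58. Among chlorophyll breakdown genes known as NAC targets, NYC1 rose at 1 h by 0.47 ± 0.12 in ecap-2 and 0.63 ± 0.12 in wild type, while NYE1 fell, with -0.25 ± 0.08 in ecap-2 and -0.33 ± 0.08 in wild type. The ecap-2 fall of NYE1 lost its call without ecap-2 0 h replicate 2 (adjusted p = 0.099) or ecap-2 1 h replicate 1 (adjusted p = 0.11).

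ABA and dehydration genes are the other setting in which ANAC072 acts. Of 7 tested, 4 were called lower in ecap-2 at 1 h, where 21.9% of all tested genes were, and none higher. RD29B, RAB18 and KIN1 did not pass, at -0.34, -0.07 and -0.36. RD29A, a dehydration response gene, averaged 7.57, 43.7 and 28.1 FPKM at 0, 1 and 3 h in ecap-2 and 4.98, 86.5 and 31.9 FPKM in wild type, a difference of -0.96 ± 0.16 at 1 h. HAI1, an ABA-induced phosphatase gene, averaged 1.03, 1.18 and 0.840 FPKM in ecap-2 and 1.43, 3.66 and 0.806 FPKM in wild type, a difference of -1.08 ± 0.14 at 1 h. ABI1 and ABI2, for phosphatases that restrain ABA signalling, were lower, with differences of -0.32 ± 0.09 for ABI1 and -0.39 ± 0.12 for ABI2, and ABI2 lost its call without ecap-2 1 h replicate 2 (adjusted p = 0.075) and with quantile normalization (adjusted p = 0.089). KIN1, a cold and ABA response gene, had means of 3.03, 19.7 and 47.0 FPKM in ecap-2 and 2.78, 28.5 and 41.6 FPKM in wild type, highest at 3 h in both. Of 7 tested touch and wound genes, which can respond to handling at transfer, 3 rose and 3 fell at 1 h in each genotype, where 16.6% of all tested genes rose and 17.0% fell in ecap-2 and 17.3% rose and 16.7% fell in wild type, and the part of transfer in the member changes was not tested. Of 5 tested genes of ethylene synthesis and reception, the hormone that ERF1 and ORA59 join to JA, none rose and 2 fell at 1 h in ecap-2, and none rose and 3 fell in wild type.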

How the data were processed

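Total RNA of whole seedlings was sequenced, 3 libraries for each of 6 groups. The deposited tables give 1 library each in FPKM per gene, as the authors made them, per the file headers. TopHat2 and Cufflinks, with the build TAIR10, are listed per the submitters' processing notes. Their versions, the strand setting and the treatment of reads with several matches are not given in the sources used here. Samples were grouped by genotype and hours on JA as labelled.

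Genes with at least 1 FPKM in at least 3 libraries were tested, 17835 of 22209. With limma 3.58.1 (R 4.3.3, statmod 1.5.0), 6 group means were fitted to log2(FPKM + 1) over the 18 libraries, with empirical Bayes moderation (trend, robust) and 12 residual degrees of freedom. Two-sided p-values were adjusted by Benjamini and Hochberg's method over all tested genes within each of 11 comparisons, at a threshold of 0.05. The method was tested on simulated data with independent normal noise and 200 of 17835 genes changed by 1 on the log2 scale. For wild type 1 h against 0 h it recovered 94.4% of those, with 4.74% of calls false. For the genotypes at 1 h these were 94.2% and 4.66%, and for the difference of response at 1 h 83.4% and 5.66%. The simulation had no linked replicates, no floor at 0 FPKM and far fewer changed genes than were called with JA, so it does not cover these features. SE is the model's standard error, and the differences of response are the change in ecap-2 less that in wild type. Depth was estimated from the lowest steps of FPKM in genes with transcripts of 2000 to 5000 bases. Fragments per member assume the RefSeq spliced length and a fragment of 200 bases, so they are approximate and cover counting error only.

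The members and the 15 lists of other genes (99 genes, 92 listed and 80 tested; the rest were not analysed here) were chosen with earlier results of these data known. Named genes were every member and, from each list, up to 4 genes with the smallest adjusted p in wild type on JA, and genes that differ between genotypes. Genes of like pattern are the 3 with the highest r per member. The locus of ECAP, AT3G58110, comes from general knowledge. Names matched for 22122 genes in the TAIR10.1 table.

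The settings varied were the pseudocount (0.1 and 5), the filter (none, and a mean FPKM of 5 or more), the scaling (a common total, and quantile normalization), the groups fitted (only those compared), a block for replicate number, plain empirical Bayes, and each library left out in turn. Leaving out all replicate 3 libraries was chosen after seeing the data. Same-numbered libraries of wild type at 0 and 1 h deviated together over genes (r between 0.13 and 0.25), which the main fit left out of account. The block fit changed no member call in that comparison. It gives replicate number the same effect in all 6 groups, so it does not pair that comparison alone. Python 3.11.15 and matplotlib 3.10.9 drew the figures.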

Additional observations from a re-analysis of the deposited data

Results flagged for a closer look

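None of the 7 transcription factor genes met a rule for a closer look, since groups of 3 libraries were not searched for outlying samples and no member's JA response differed between the genotypes beyond the threshold. Of 80 tested genes in the lists of related genes, 5 responded differently to JA in the genotypes by the limma test of that difference. Values are the ecap-2 change less the wild type change on the log2(FPKM + 1) scale. Over all tested genes, 0.314% were called in this test at 1 h and 2.42% at 3 h. The lists were chosen with earlier results of these data known, so the count supports nothing further. RD29A, the dehydration response gene, differed at 1 h by -1.48 ± 0.22 (adjusted p = 0.011), and the call held in 26 of 28 alternatives (adjusted p between 0.0017 and 0.074). AOC2, of JA synthesis, differed at 3 h by -1.12 ± 0.24 (adjusted p = 0.024; called in 22 of 28 alternatives, adjusted p between 0.0055 and 0.065). AOC3, its neighbour, differed at 3 h by 0.66 ± 0.16 (adjusted p = 0.035; called in 18 of 28, adjusted p between 0.015 and 0.1). AOC2 and AOC3 are close copies of one another, so how reads were shared between them is uncertain. NCED3, of ABA synthesis, differed at 3 h by 0.69 ± 0.16 (adjusted p = 0.033; called in 17 of 27, adjusted p between 0.02 and 0.17). It reached 1 FPKM in every wild type 0 h library, in wild type 1 h replicate 2 and 3 h replicate 3, and in no ecap-2 library. NCED3 thus passed the filter through the group in which it was highest, and its call supports nothing further. PR4, the defence gene, differed at 3 h by 0.55 ± 0.12 (adjusted p = 0.03; called in 20 of 28, adjusted p between 0.013 and 0.093). For AOC2, AOC3, NCED3 and PR4 the libraries of the genotypes overlapped at 3 h and stood apart at 0 h. At 0 h AOC2 had 22.6 to 36.5 FPKM in ecap-2 and 10.7 to 12.9 FPKM in wild type. At 3 h it had 355 to 416 FPKM in ecap-2 and 375 to 428 FPKM in wild type. The differences of response of these genes thus include unequal levels before JA. For RD29A the genotypes overlapped at 0 h and stood apart at 1 h.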

How the results depend on the processing

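Of 30 member calls, 20 held in every alternative the gene entered, and no called member value changed sign. With a mean of at least 5 FPKM ANAC072 was the one member tested, so called members were 0, 0 and 0 in ecap-2 at 1 h, at 3 h and from 1 to 3 h, 1, 1 and 1 in wild type, and 1 and 0 between genotypes at 1 and 3 h. Called members were 3 at 3 h in ecap-2 and 3 in wild type with a pseudocount of 5. With a pseudocount of 0.1 they were 2 in wild type from 1 to 3 h and 3 and 0 between genotypes at 1 and 3 h. With only the groups compared they were 5 in wild type at 3 h with other members, 2 from 1 to 3 h and 0 between genotypes at 3 h. Between genotypes at 3 h they were 2 with no filter, 2 with a common total, 1 (another gene) with quantile normalization and 0 with all replicate 3 libraries left out.

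Leaving out 1 library gave 3 to 4, 4 to 5 and 3 to 4 called members in ecap-2 at 1 h, at 3 h and from 1 to 3 h, 4 to 6, 2 to 6 and 2 to 4 in wild type, and 1, 3 to 5 and 0 to 1 between genotypes at 0, 1 and 3 h. Over all genes, differences of response called at 1 h numbered 56, with 32 at a pseudocount of 0.1, 114 at 5, 15 with only the groups compared, 16 without replicate 3 libraries and 22 to 56 with 1 library left out. At 3 h they numbered 432, with 658 at a pseudocount of 5, 778 with a common total, 103 without replicate 3 libraries and 134 to 1264 with 1 library left out (1264 without ecap-2 0 h replicate 1, 134 without ecap-2 3 h replicate 2). Genes called from 1 to 3 h in wild type numbered 5164, and 3255 without replicate 3 libraries.

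With replicate number as a block, 789 differences of response were called at 3 h, and members called were 4 in ecap-2 at 1 h, where ORA47 was added, 5 in wild type at 1 h, and 5 between genotypes at 1 h, where ERF109 was added; the block changed no other member call. Same-numbered libraries all deviated together at r above 0.1 for wild type at 0 h with wild type at 1 h and with ecap-2 at 1 h (r between 0.13 and 0.21 for ecap-2 at 1 h). No other pair of groups passed that cut in every replicate. Wild type at 1 h came near it with ecap-2 at 0 h (r between 0.08 and 0.15) and with ecap-2 at 1 h (r between 0.06 and 0.20). Low levels limit 5 tested members and ERF1: at 0 h ERF109 and ORA59 rest on about 1.0 to 9.0 fragments per library.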
